A study of Mus musculus with 12 samples.

Results

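The SLAM family receptors are cell-surface proteins of blood cells, and the 7 described here were chosen by name: Slamf1, Cd48, Cd244, Ly9, Cd84, Slamf6 and Slamf7, out of 35869 genes in the deposited table. All 7 passed the filter on low counts and were tested. The RNA came from mouse haematopoietic stem cells (HSCs), taken from bone marrow and sorted by flow cytometry for the presence (CD41pos) or absence (CD41neg) of CD41, the integrin chain encoded by Itga2b. The study asked how Runx1, which encodes a transcription factor needed for blood formation, acts on these stem cell fractions. Mice labelled WT had the genotype MxCre1-/-,RUNX1f/f and mice labelled KO had MxCre1+/-,RUNX1f/f, so that both carried floxed Runx1 and only KO mice carried the recombinase. Both received 4 poly(I:C) injections and were sampled 4 weeks after injection. The Mx1 promoter is switched on by interferon and is not restricted to blood cells, so the design does not limit deletion to the stem cells. Each of the 4 groups had 3 libraries, numbered WT 1, 3 and 4 for CD41pos, WT 2, 3 and 4 for CD41neg, and KO 1, 2 and 3 for each fraction. The labels do not state that the libraries of a group came from separate animals, so p-values measure only how these libraries vary, which may be technical in part.

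SLAM receptors carry immunoglobulin-like domains outside the cell, and most of them bind the same receptor on a neighbouring cell. Cd48 is an exception: it is held in the membrane by a lipid anchor, has no cytoplasmic tail, and serves as the ligand of Cd244 and of Cd2. The other members pass signals through tyrosine motifs in their tails, to which the small adaptors SAP (Sh2d1a) and EAT-2 (Sh2d1b1 in mouse) bind. In mouse bone marrow, CD150 (the protein of Slamf1) and CD48 are widely used to sort stem cells, which carry CD150 and lack CD48, from multipotent and restricted progenitors. Beyond CD41, the sources used here do not give the surface markers of the HSC gate, and whether CD150 or CD48 protein entered the gate is not known.

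The 7 genes lie side by side on mouse chromosome 1 within 394.0 kb (GRCm38, GENCODE vM21), and all are protein-coding. Cd244, annotated as Cd244a, spans 171559193 to 171609746 on the plus strand. Ly9 (171588624 to 171607410, minus strand) lies inside the span of Cd244 with 0 shared exonic bases. Slamf7 follows at 171632403 to 171653035 on the minus strand. The remaining 4 are on the plus strand: Cd48 at 171682009 to 171705258, Slamf1 at 171767127 to 171801184, Cd84 at 171839697 to 171890718 and Slamf6 at 171917515 to 171953170. The library kit does not mark the strand, so intronic or overlapping antisense reads, such as those of Gm37065 within Slamf6, cannot be told apart from reads of the member.

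The promoters of Cd48, Cd84 and Slamf1 are shown because these are the 3 members with the highest levels, and RUNX1 is the factor that was targeted. RefSeq promoters of GRCm38.p6 were at hand for 6 of the 7 members, and Ly9 had none. They are windows of 300 bases that end just after the RefSeq gene start, which can differ from the GENCODE start given above. The Slamf6 window ends at 171917511, before its GENCODE start, and the Slamf7 window (171648950-171649249) lies inside its GENCODE span. Each of the 6 windows was searched on both strands for the RUNX core letters TGTGGT and TGCGGT, which do not overlap one another. Capitals mark a match, and the sequences are given 5′ to 3′ on the plus strand, which is the strand of these genes.
Cd48 (chr1:171681742-171682041): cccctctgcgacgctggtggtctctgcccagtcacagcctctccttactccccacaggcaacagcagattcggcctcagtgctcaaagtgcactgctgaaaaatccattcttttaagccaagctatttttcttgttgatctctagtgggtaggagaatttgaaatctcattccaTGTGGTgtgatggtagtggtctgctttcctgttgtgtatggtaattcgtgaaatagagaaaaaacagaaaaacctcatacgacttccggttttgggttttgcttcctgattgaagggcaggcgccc
Cd84 (chr1:171839447-171839746): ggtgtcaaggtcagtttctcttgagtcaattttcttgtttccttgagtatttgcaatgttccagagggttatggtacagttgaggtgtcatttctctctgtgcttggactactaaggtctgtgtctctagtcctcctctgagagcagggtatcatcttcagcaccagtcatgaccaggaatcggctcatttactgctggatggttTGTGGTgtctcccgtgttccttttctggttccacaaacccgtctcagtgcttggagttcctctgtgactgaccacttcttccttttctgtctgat
Slamf1 (chr1:171766882-171767181): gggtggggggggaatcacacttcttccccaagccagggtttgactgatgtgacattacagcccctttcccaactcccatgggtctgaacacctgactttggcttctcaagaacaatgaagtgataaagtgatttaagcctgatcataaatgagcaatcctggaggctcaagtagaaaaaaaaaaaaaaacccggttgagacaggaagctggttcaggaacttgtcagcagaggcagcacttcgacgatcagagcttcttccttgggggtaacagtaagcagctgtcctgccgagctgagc
Cd48 and Cd84 each held 1 TGTGGT, beginning 76 and 45 bases before the RefSeq start, and the windows of the other 4 held neither word. Among 27025 RefSeq promoters of the same length, 16.9% held TGTGGT, 6.43% held TGCGGT and 22.5% held at least 1 of them, so 2 of 6 is a description of these windows and no more. No binding was measured in these data.

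Libraries held between 44108035 and 58946457 counts. Itga2b checked the CD41 sort: its level was 621 ± 65.9 CPM (counts scaled to library size; mean ± SD, n = 3) in CD41pos WT and 103 ± 47.0 in CD41neg WT, and 1118 ± 131 against 247 ± 30.2 in KO. Runx1 was counted over the whole gene and was higher in KO (326 ± 55.9 against 149 ± 9.23 CPM in CD41pos, 164 ± 7.04 against 80.1 ± 12.9 in CD41neg). The sources used here do not name the deleted exons, and this total checks neither the labels nor the deletion. The stem cell markers Kit, Hlf and Procr were read in all 12 libraries, and none of the 12 listed stem cell markers was at 0 in a group. The 4 WT libraries with library numbers up to 6 (CD41pos WT 1 and 4, CD41neg WT 2 and 4) stood apart. Their Nr4a1, an immediate early gene, was at 18.6 to 27.7 CPM, against 237 to 396 in the other 8. Xist ran from 113 to 339 CPM in WT and from 0.843 to 318 in KO, so the sexes of the animals were not balanced. Some WT libraries also held the Y-linked gene Ddx3y: CD41pos 3 (11.2 CPM) and 4 (22.5), CD41neg 2 (19.4) and 3 (38.9). It was at 0.0355 in CD41pos WT 1 and 0 in CD41neg WT 4. In both fractions, KO 1 and 3 had Ddx3y at 83.4 to 103 and Xist at 0.843 to 1.00. KO 2 had Ddx3y at 0.155 to 0.161 and Xist at 308 to 318. Whether WT libraries pooled animals of both sexes was not tested. Several results below, but not all, are also given without the 4 WT libraries numbered up to 6 or with a term for them.

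Cd48 was the most abundant SLAM receptor transcript, and Slamf1 came next. Per transcript length, Cd48 was at 59.2 ± 1.37 TPM (the authors' values, scaled by transcript length and library size; mean ± SD, n = 3) in CD41pos WT, 54.5 ± 15.7 in CD41neg WT, 243 ± 12.3 in CD41pos KO and 209 ± 9.34 in CD41neg KO. Slamf1 was at 25.6 ± 10.5, 14.0 ± 2.79, 80.2 ± 5.60 and 46.2 ± 8.66 TPM in the same order of groups. On this scale Cd48 lay above Slamf1, and Slamf1 above Cd84, in 12 of 12 libraries, but in CD41neg WT 2 Slamf1 and Cd84 were almost level at 14.8 and 14.6 TPM. Cd84 lay above Ly9 in 11 of 12, the exception being CD41neg WT 3, and Ly9 above Cd244 in 12 of 12. At the low end, Cd244 lay above Slamf6 in 12 of 12 libraries and above Slamf7 in 10 of 12, the exceptions being CD41neg WT 2 and 4. Slamf7 lay above Slamf6 in 8 of 12 with 3 ties, so the order of these neighbours did not hold across libraries. Group means of Slamf6 did not pass 0.7 TPM.

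Summed over the 7 genes, the TPM of the family ranged from 83.1 to 119.5 in CD41pos WT and from 60.8 to 111.1 in CD41neg WT. In KO it ranged from 339.7 to 371.4 in CD41pos and from 286.9 to 305.7 in CD41neg, so that every KO library lay above every WT library. Slamf1 and Cd48 together made up 74.6 to 86.5% of this sum in CD41pos WT, 72.8 to 78.1% in CD41neg WT, 89.8 to 90.4% in CD41pos KO and 84.8 to 89.9% in CD41neg KO. This sum is mostly the level of these 2 genes and says little of the other 5.

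**Figure D1:**
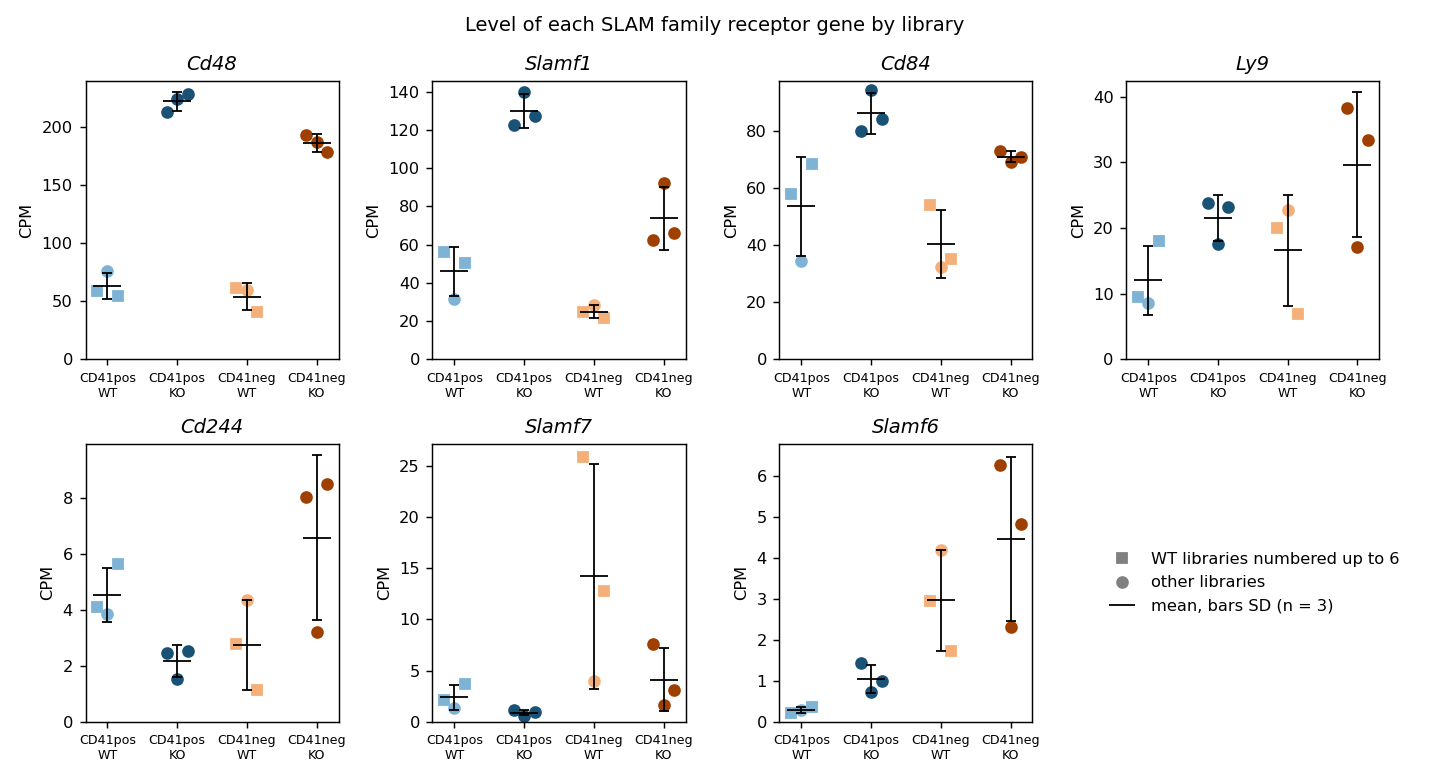
Level of each of the 7 genes (CPM, linear axis from 0, a separate scale per gene) in the 12 libraries by group, with group mean and SD (n = 3); squares are the WT libraries numbered up to 6. For Cd48, all 6 KO libraries lie at 178 CPM or above and all 6 WT libraries at 75.7 or below; Slamf7 is highest in CD41neg WT 2 at 25.9.

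KO was compared with WT first in CD41pos HSCs, 3 libraries against 3. Cd48, Slamf1 and Slamf6 rose in KO (3 of 7 members called by edgeR's quasi-likelihood test with Benjamini-Hochberg adjustment over 19395 genes). Of all genes tested 17.1% were called in this comparison, 9.79% higher and 7.27% lower, and no member was called lower. The median log2 fold change of the 7 members was 0.84, beside -0.08 over all genes tested. By library, 4 members lay wholly above WT and 2 wholly below, where 21.9% and 22.4% of all genes did so, 44.3% in all.

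Cd48, the ligand of the family, had levels of 58.8, 75.7 and 54.8 CPM in CD41pos WT 1, 3 and 4 and of 213, 225 and 229 CPM in CD41pos KO 1, 2 and 3. The groups were far apart, and the 3 KO libraries lay close to one another. The change was 1.82 ± 0.17 on the log2 scale (± SE), a 3.52-fold rise (edgeR adjusted p = 0.000466), and Cd48 ranked 5 of 19395 genes by p in this comparison. In the CD41neg fraction Cd48 was at 61.6, 59.3 and 40.5 CPM in WT 2, 3 and 4 and at 193, 187 and 178 CPM in KO 1, 2 and 3. Again no WT library reached a KO library. The log2 change there was 1.79 ± 0.17, a 3.46-fold rise (edgeR adjusted p = 0.000409), with rank 6 by p.

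Slamf1, a self-binding receptor whose protein CD150 marks stem cells, was at 56.1, 31.4 and 50.6 CPM in CD41pos WT 1, 3 and 4, and at 123, 140 and 128 CPM in CD41pos KO 1, 2 and 3. All KO libraries lay above all WT libraries, and the spread in WT was the wider. Its log2 change was 1.50 ± 0.22, a 2.82-fold rise (edgeR adjusted p = 0.00273). In CD41neg HSCs Slamf1 was at 24.5, 28.2 and 21.4 CPM in WT 2, 3 and 4 and at 62.6, 92.5 and 66.0 CPM in KO 1, 2 and 3. The groups did not overlap here either. The log2 change was 1.58 ± 0.22, a 2.98-fold rise (edgeR adjusted p = 0.00318).

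Both genes were called higher in KO, in both fractions, under each of the 11 alternative settings and with each of the 12 libraries left out in turn. Across all of these the log2 change of Cd48 ran from 1.62 to 2.04 in CD41pos and from 1.58 to 1.98 in CD41neg, and that of Slamf1 from 1.28 to 2.15 and from 1.38 to 1.72. A difference of the genotype effect between fractions was not detectable: the interaction of genotype and fraction was 0.03 ± 0.23 for Cd48 and -0.08 ± 0.30 for Slamf1 (edgeR adjusted p = 0.994 and 0.980). Without the 4 WT libraries that stood apart, which leaves 1 WT library in each fraction, it was 0.003 for Cd48 and 0.76 for Slamf1. In bulk RNA, fewer cells of a type and less RNA per cell cannot be told apart, and this holds for every change given here.

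**Figure D2:**
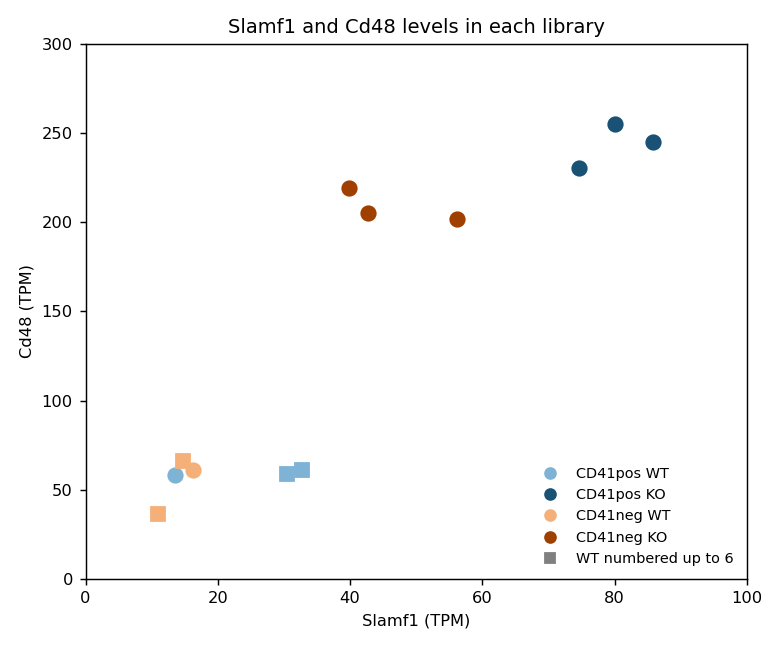
Cd48 against Slamf1 in each of the 12 libraries (TPM on both axes, linear), coloured by group; squares are the WT libraries numbered up to 6. The 6 KO libraries lie apart from the 6 WT libraries along the Cd48 axis, and within KO the CD41pos libraries lie to the right of the CD41neg ones.

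The ratio of Cd48 to Slamf1, taken in TPM, ranged from 1.86 to 4.29 in CD41pos WT, 3.36 to 4.47 in CD41neg WT, 2.85 to 3.18 in CD41pos KO and 3.60 to 5.50 in CD41neg KO. WT and KO ranges overlapped in each fraction. In KO the ratio was lower in CD41pos than in CD41neg libraries, with no overlap, whereas in WT it overlapped. These ratios are given as a description and were not tested.

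In CD41neg HSCs, 2 of 7 members were called, and both, Cd48 and Slamf1, rose. Of all genes tested 7.82% were called, 3.85% higher and 3.97% lower. The members' median log2 change was 0.84, beside -0.03 over all genes. By library, 3 members (Cd48, Slamf1 and Cd84) lay wholly above WT and 0 wholly below, where 18.5% and 17% of all genes did so, 35.5% in all.

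Cd84, a self-binding receptor found on platelets, B cells, T cells and myeloid cells, was at 57.8, 34.5 and 68.5 CPM in CD41pos WT 1, 3 and 4 and at 80.2, 94.3 and 84.3 CPM in CD41pos KO 1, 2 and 3. In CD41neg it was at 54.1, 32.3 and 35.1 CPM in WT 2, 3 and 4 and at 73.1, 69.2 and 70.9 CPM in KO 1, 2 and 3. Every KO library lay above every WT library of its fraction, but the WT libraries were widely spread. The log2 changes, 0.69 ± 0.24 in CD41pos and 0.81 ± 0.24 in CD41neg, missed the threshold (edgeR adjusted p = 0.0647 and 0.0563). With a term for the 4 WT libraries that stood apart, they were 1.18 ± 0.21 and 1.27 ± 0.21 (edgeR adjusted p = 0.00595 and 0.00882). Without those libraries, which leaves 1 WT library in each fraction, they were 1.42 and 1.14 (adjusted p = 0.000128 and 0.00572). DESeq2 also called Cd84 in both fractions (adjusted p = 0.0373 and 0.0234), so its call depended on the setting, while its direction did not.

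Ly9 encodes CD229, a self-binding receptor of lymphocytes. It was at 9.49, 8.51 and 18.1 CPM in CD41pos WT 1, 3 and 4 and at 23.8, 17.5 and 23.1 CPM in KO 1, 2 and 3. In CD41neg it was at 20.0, 22.8 and 6.95 CPM in WT 2, 3 and 4 and at 38.3, 17.2 and 33.5 CPM in KO 1, 2 and 3. The groups overlapped in both fractions. The log2 change was 0.84 ± 0.43 in each fraction (edgeR adjusted p = 0.183 in CD41pos and 0.236 in CD41neg). Without the 4 WT libraries, the value was 1.43 in CD41pos (adjusted p = 0.0371) and 0.38 in CD41neg (adjusted p = 0.607). With a term for them it was 0.76 and 0.79 (adjusted p = 0.367 and 0.339).

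Slamf6, or Ly108, is a self-binding receptor of T, B and natural killer (NK) cells, and it had the lowest mean TPM of the members in each of the 4 groups. CD41pos WT libraries 1, 3 and 4 held 12, 13 and 21 reads of it, or 0.213, 0.295 and 0.353 CPM, and CD41pos KO libraries 1, 2 and 3 held 78, 41 and 56 reads, or 1.42, 0.735 and 0.983 CPM. KO lay above WT without overlap, at levels near 1 CPM or below. The log2 change was 1.86 ± 0.48 (edgeR adjusted p = 0.0226). Leaving out CD41pos WT 1, CD41pos KO 1 or CD41pos KO 3 ended the call, with an edgeR adjusted p of 0.0661, 0.0806 and 0.0591. A block by replicate number ended it too (1.84, edgeR adjusted p = 0.0762). That block groups same-numbered WT and KO libraries, which come from different mice, so it follows no pairing of the design. A term that sets the 4 WT libraries apart also ended the call (1.50, edgeR adjusted p = 0.0841). Their removal, which leaves 1 WT library in each fraction, gave 1.91 and did not keep the call. On log2(TPM + 1) and log2(TPM + 0.1), which shrink changes of rare transcripts, the value was 0.13 and 0.86 (limma adjusted p = 0.580 and 0.222). In CD41neg, Slamf6 was at 2.94, 4.20 and 1.74 CPM in WT 2, 3 and 4 and at 6.27, 2.30 and 4.81 CPM in KO 1, 2 and 3. These groups overlapped, and the log2 change was 0.59 ± 0.44 (edgeR adjusted p = 0.413). The interaction of genotype and fraction for Slamf6 was 1.27 ± 0.64 (adjusted p = 0.894), so the 2 fractions were not shown to differ.

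Cd244, or 2B4, the receptor of Cd48, is known from NK cells and some progenitors. It was at 4.12, 3.84 and 5.63 CPM in CD41pos WT 1, 3 and 4 and at 2.46, 1.52 and 2.55 CPM in CD41pos KO 1, 2 and 3. In CD41neg it was at 2.77, 4.34 and 1.12 CPM in WT 2, 3 and 4 and at 8.04, 3.20 and 8.50 CPM in KO 1, 2 and 3. KO libraries were thus below WT in CD41pos without overlap, while in CD41neg the groups overlapped with a higher KO mean. The log2 changes were -1.06 ± 0.48 in CD41pos and 1.26 ± 0.48 in CD41neg (edgeR adjusted p = 0.134 and 0.118). Cd244 had the largest interaction of genotype and fraction among the 7 members, -2.32 ± 0.67 on the log2 scale, with an unadjusted p of 0.0047 and an adjusted p of 0.700 in edgeR. No gene passed that test in edgeR (0% of 19395). An unadjusted p below 0.05 was held by 1093 of these 19395 genes, Cd244 being the only member among them. Where no gene differs, a share of about 0.05 falls below that cut, so this count says little by itself. For the interaction, DESeq2 called 63 genes and none of the members, with an adjusted p of 0.0949 for Cd244. With a covariate for Y-linked expression, the CD41pos change of Cd244 was -1.40 and passed the threshold (edgeR adjusted p = 0.0176). That change was called in only 1 of 11 alternative settings and in 0 of 12 fits that left out 1 library. Without the 4 WT libraries, which leaves 1 WT library in each fraction, the changes were -0.72 in CD41pos and 0.60 in CD41neg. The interaction of Cd244 was then -1.32.

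**Figure D3:**
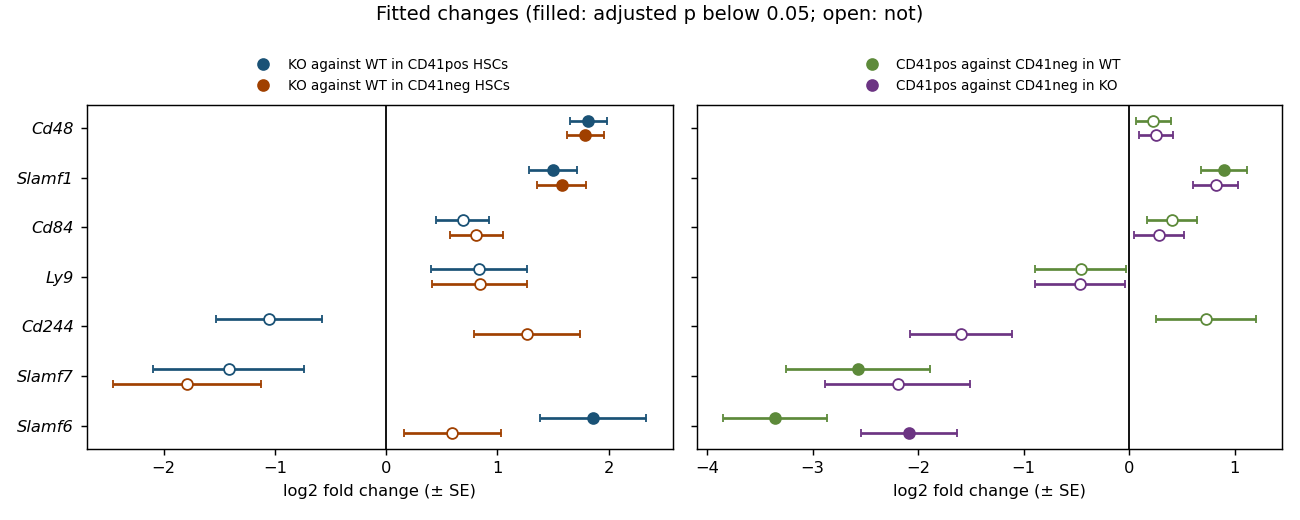
Fitted log2 fold change with its SE for each of the 7 genes, on one side KO against WT in the CD41pos and CD41neg fractions and on the other CD41pos against CD41neg in WT and in KO; filled points have an adjusted p below 0.05. Cd48 and Slamf1 are filled in both KO comparisons at 1.50 to 1.82, and Slamf6 is filled in both fraction comparisons on the lower side.

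Slamf7, or CS1, is a self-binding receptor abundant on plasma cells and NK cells. In CD41pos it was at 2.15, 1.32 and 3.70 CPM in WT 1, 3 and 4 and at 1.11, 0.592 and 0.983 CPM in KO 1, 2 and 3, with KO below WT throughout. In CD41neg it was at 25.9, 4.02 and 12.7 CPM in WT 2, 3 and 4 and at 7.56, 1.67 and 3.11 CPM in KO 1, 2 and 3. The highest values by far were those of CD41neg WT 2 and 4, and the CD41neg groups overlapped. The log2 changes of -1.42 ± 0.68 and -1.79 ± 0.66 did not pass the threshold (edgeR adjusted p = 0.155 and 0.112), although DESeq2 called the latter (-1.80, adjusted p = 0.0303). Without the 4 WT libraries that stood apart, the changes were -0.46 and 0.03, and with a term for them -0.20 and -0.37.

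The 8 plasma cell markers in the table were highest in the libraries where Slamf7 was. Their summed level was 3660 and 3000 CPM in CD41neg WT 2 and 4, and 528 CPM in CD41neg WT 3. It was 877, 333 and 733 CPM in CD41pos WT 1, 3 and 4, and between 203 and 318 CPM in the 6 KO libraries, among them CD41neg KO 1 with Slamf7 at 7.56 CPM and a marker sum of 318. None of the 8 was at 0 in a group. By edgeR, 7 of 8 fell in CD41neg KO, where 3.97% of all genes fell, with a median log2 change of -3.13 beside -0.03 over all genes. In CD41pos KO 3 of 8 fell, where 7.27% of all genes fell, with a median of -1.55. Among them Irf4, a transcription factor of plasma cell formation, changed by -3.01 ± 0.43 in CD41neg (adjusted p = 0.00368), and Jchain, which links secreted antibodies, by -4.17 ± 0.92 in CD41pos (adjusted p = 0.0121). The part of plasma cell RNA in the level of Slamf7 was not tested.

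**Figure D4:**
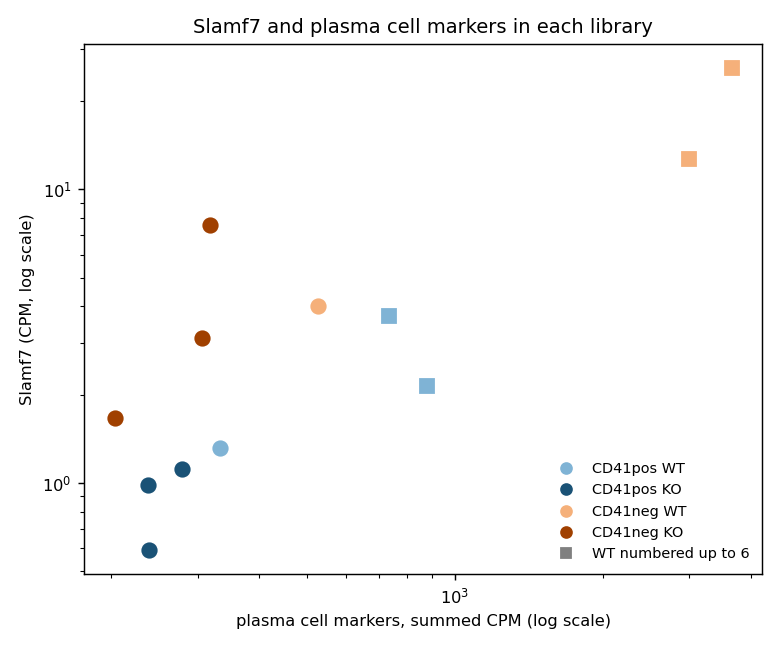
Slamf7 (CPM, log axis) against the summed CPM of 8 plasma cell markers (log axis) in each of the 12 libraries, coloured by group; squares are the WT libraries numbered up to 6. CD41neg WT 2 and 4 lie at the upper right, with Slamf7 at 25.9 and 12.7 CPM and marker sums of 3660 and 3000.

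The CD41pos and CD41neg fractions were then compared within each genotype. These comparisons use the same libraries as those of genotype and are not independent of them. Of the 2 replicate blocks fitted for the fraction comparisons, the first pairs libraries by sample label and the second by adjacent library number. They pair the KO libraries alike and the WT libraries differently. In the label block CD41pos WT 1 and CD41neg WT 2 have no partner, so its WT values rest on WT 3 and WT 4 alone. Which WT libraries came from the same animals is not settled by the labels, and same-labelled WT libraries did not deviate together. Ddx3y was at 22.5 CPM in CD41pos WT 4 and 0 in CD41neg WT 4. These 2 thus differed in the sexes of their animals, and the label block pairs them. By adjacent number, CD41pos WT 1 at 0.0355 is paired with CD41neg WT 4, and CD41pos WT 4 with CD41neg WT 2 at 19.4. Blocked values are given for both pairings where either changes a call. In WT, Slamf1 rose and Slamf6 and Slamf7 fell in CD41pos relative to CD41neg (1 member higher and 2 lower by edgeR). Of all genes 5.59% were called, 2.72% higher and 2.87% lower. The same 3 members were those without overlap between the libraries, where 22.8% of all genes did not overlap, 11.4% wholly above and 11.4% wholly below. The members' median log2 change was 0.23, beside 0.01 over all genes.

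Slamf6 in WT differed most between the fractions. It was 10.2-fold lower in CD41pos (log2 change -3.35 ± 0.49, edgeR adjusted p = 0.00324), and its 0.213 to 0.353 CPM there stood against 1.74 to 4.20 CPM in CD41neg. The call held with each of the 12 libraries left out, and it was lost with the label block (-3.04, adjusted p = 0.0796) and on log2(TPM + 1) (-0.43, limma adjusted p = 0.141). The block by library number kept it (-3.29, adjusted p = 0.00474). In KO, Slamf6 was 4.25-fold lower in CD41pos (log2 change -2.09 ± 0.46, edgeR adjusted p = 0.0298), with 0.735 to 1.42 CPM against 2.30 to 6.27. It was the only member called there, where 2.79% of all genes were called, 1.56% higher and 1.23% lower. With either replicate block the value was -2.03, which missed the threshold with the label block (adjusted p = 0.0750) and passed it with the block by library number (adjusted p = 0.0173). The KO call was also lost in 5 of the 12 fits that left out 1 library, namely each of the CD41pos KO libraries and CD41neg KO 1 and 3, with an adjusted p of up to 0.156.

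Slamf1 was higher in CD41pos than in CD41neg WT by 0.90 ± 0.21 on the log2 scale (edgeR adjusted p = 0.0319), with 31.4 to 56.1 against 21.4 to 28.2 CPM. This call was lost when any of 9 of the 12 libraries was left out, and held only without CD41pos WT 3, CD41neg KO 1 or CD41neg KO 2. It was 0.70 with the label block (adjusted p = 0.300) and 0.87 with the block by library number (adjusted p = 0.0672). Without the 4 WT libraries that stood apart, which leaves 1 library against 1, it was 0.08 (adjusted p = 0.885). In KO the change was 0.82 ± 0.21 with no overlap between 123 to 140 and 62.6 to 92.5 CPM, but it did not pass the threshold (edgeR adjusted p = 0.0647). DESeq2 called it (0.82, adjusted p = 0.0165), as did the fit without the 4 WT libraries (0.84, adjusted p = 0.0157).

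Slamf7 was 5.94-fold lower in CD41pos than in CD41neg WT (log2 change -2.57 ± 0.68, edgeR adjusted p = 0.0479). Its call was lost in 9 of the 12 fits that left out 1 library, with an adjusted p of 0.171 without CD41neg WT 2. It held only without CD41neg WT 3, CD41neg KO 1 or CD41neg KO 2. The value was -1.70 with the label block (adjusted p = 0.122) and -2.35 with the block by library number, which kept the call (adjusted p = 0.0108). It was -1.68 without the 4 WT libraries (adjusted p = 0.268). In KO the log2 change was -2.20 ± 0.69 without overlap of the libraries (edgeR adjusted p = 0.134), and DESeq2 called it (-2.18, adjusted p = 0.00985). So did the block by library number (-1.99, adjusted p = 0.0250), while the label block gave -1.98 (adjusted p = 0.0547).

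In KO, 3 members lay wholly higher in CD41pos by library (Slamf1, Cd48 and Cd84) and 3 wholly lower (Cd244, Slamf6 and Slamf7), where 15.7% and 14.1% of all genes did so, 29.9% in all. Cd48, at 0.25 ± 0.16, and Cd84, at 0.28 ± 0.24, differed by little (edgeR adjusted p = 0.596 and 0.741). Cd244 differed by -1.59 ± 0.48 (edgeR adjusted p = 0.117), which DESeq2 called (-1.58, adjusted p = 0.0148). Ly9 overlapped between the fractions in both genotypes, with a log2 change of -0.46 ± 0.43 in each. The median of the 7 members was -0.46 in KO, beside -0.02 over all genes.

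Markers of lymphoid cells were also compared between the fractions, where 5.59% of all genes were called in WT and 2.79% in KO. The 10 B cell markers summed to 54.3 to 73.0 CPM in CD41pos WT against 86.5 to 163 in CD41neg WT, and to 42.2 to 63.9 against 54.5 to 134 in KO, where the sums overlapped. Of these markers 1 was called in WT, the B cell receptor component Cd79a (-2.56, edgeR adjusted p = 0.042), and 0 in KO. Their median log2 change was -1.68 in WT and -2.004 in KO. The 11 T and NK cell markers in the table summed to 235 to 305 CPM in CD41pos WT against 91.4 to 149 in CD41neg WT, and 1 of 11 was called, Nkg7, a granule protein of NK and cytotoxic T cells, which was higher in CD41pos WT (1.28, edgeR adjusted p = 0.00947). In KO their sums were 81.5 to 143 CPM in CD41pos against 54.4 to 96.5 in CD41neg, and 0 of 11 were called. The median of the 11 went the other way from these sums and from Nkg7, at -1.49 in WT and -1.15 in KO. Of the B cell list and of the T and NK cell list, no gene was at 0 in any group. The part of lymphoid cells in the levels of Slamf6, Slamf7, Ly9 and Cd244 was not tested. The 14 megakaryocyte and platelet markers went the way of the CD41 sort, with 11 higher in CD41pos WT and 10 in CD41pos KO. Of all genes, 2.72% and 1.56% were higher there.

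The adaptors that bind SLAM tails were close to undetected. Sh2d1a, which encodes SAP, ran from 0 to 0.686 CPM over the 12 libraries, and Sh2d1b1, which encodes EAT-2, from 0 to 0.857. Cd2, the other receptor of Cd48, ran from 0.246 to 4.27 CPM, and the outlying family members Slamf8 and Slamf9 from 0.274 to 3.84 and from 0 to 2.28. The phosphatases and kinases that SLAM tails can use were present: Inpp5d (SHIP-1) at 177 CPM, Ptpn6 (SHP-1) at 289 CPM and the kinase Fyn at 132 CPM on average in CD41pos WT. Of the 17 adaptors, ligands and partners listed, 16 were tested. Among all genes, 17.1% were called for KO in CD41pos and 7.82% in CD41neg. Between fractions, 5.59% were called in WT and 2.79% in KO. In CD41pos KO 1 rose and 0 fell, the riser being Prkcq, a protein kinase C of T cell signalling (1.37 ± 0.27, edgeR adjusted p = 0.00804), with a list median of 0.09. In CD41neg KO 0 rose and 0 fell, with a median of 0.07. Between fractions, 0 were called in WT, and in KO Fyn (0.94, edgeR adjusted p = 0.032) and Prkcq (1.13, adjusted p = 0.047) were higher in CD41pos.

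Among 17 other surface markers that divide stem and progenitor cells, 3 rose and 0 fell in CD41pos KO, where 17.1% of all genes were called. These were Tek, the angiopoietin receptor (1.44 ± 0.35, edgeR adjusted p = 0.0185), Csf2rb, a shared cytokine receptor chain (1.09 ± 0.27, adjusted p = 0.0206), and Itga2, an integrin chain (1.59 ± 0.46, adjusted p = 0.0347). In CD41neg KO 1 rose, Itga2b itself (1.26 ± 0.28, edgeR adjusted p = 0.0223), where 7.82% of all genes were called.

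The 7 members were also set beside the other protein-coding genes of their region. Within 500 kb of the cluster's ends, 41 such genes start, 40 of them in the table and 34 tested. In CD41pos KO, 1 of 34 rose (Pigm, 0.73, edgeR adjusted p = 0.005) and 4 fell, where 9.79% of all genes rose and 7.27% fell. Among the 4 was Fcer1g, the common chain of Fc receptors (-1.49, edgeR adjusted p = 0.010). The neighbours' median log2 change was -0.24, with 29 of 34 within 1 of 0. In CD41neg KO, 0 rose and 1 fell (Klhdc9, -0.88, edgeR adjusted p = 0.022), where 3.85% of all genes rose and 3.97% fell. The median there was -0.09, with 30 of 34 within 1 of 0. Within the cluster itself, Slamf7 lies between Cd244 and Cd48, and neither it nor Ly9 was called in either KO comparison.

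**Figure D5:**
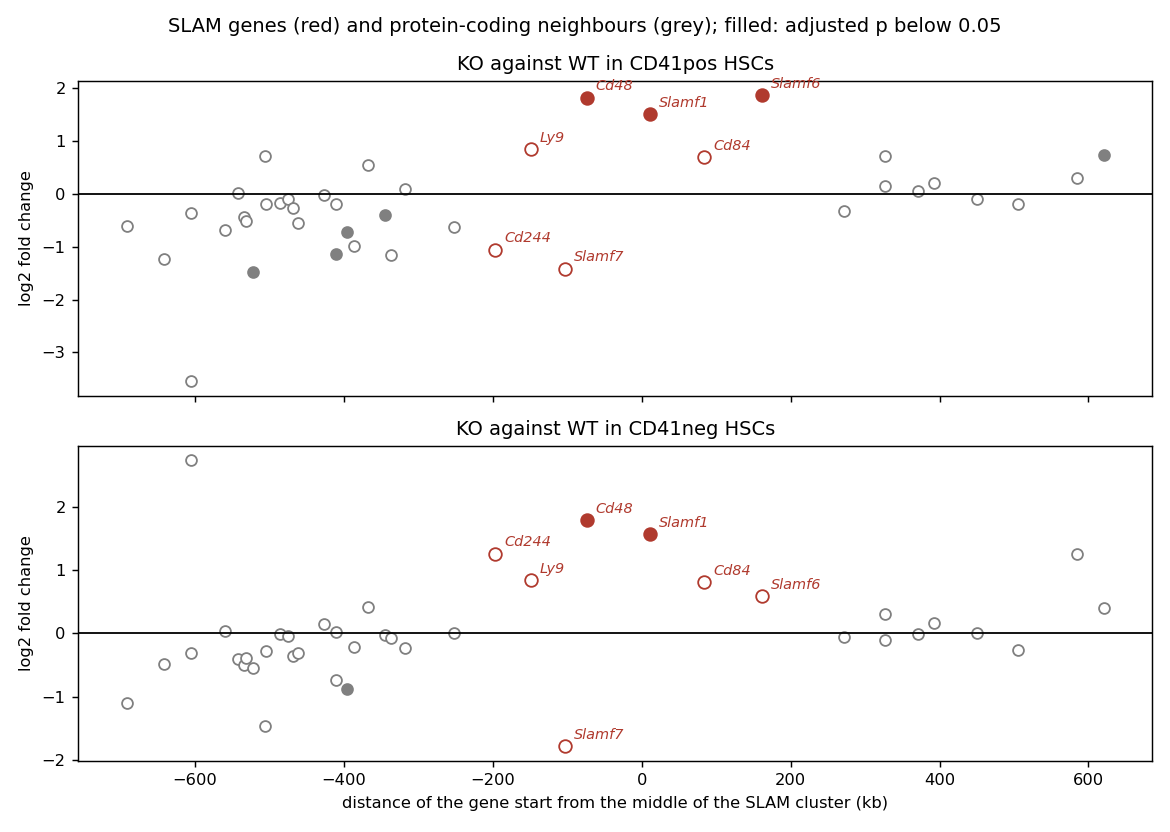
Log2 fold change of KO against WT in CD41pos and CD41neg HSCs by distance of each gene's start from the middle of the SLAM cluster (kb), with SLAM genes in red, the 34 tested protein-coding neighbours in grey, and filled points for an adjusted p below 0.05. Cd48 and Slamf1 stand above every called neighbour in both fractions. In CD41neg the only called neighbour fell, and 1 of the 34 tested neighbours, which was not called, lies above both genes.

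Members varied together to different degrees over the 12 libraries. On log2(CPM + 1), Pearson's r was 0.877 for Slamf1 with Cd48, 0.883 for Slamf1 with Cd84 and 0.782 for Cd48 with Cd84. It was 0.671 for Ly9 with Slamf6 and -0.747 for Slamf1 with Slamf7. The 12 points share genotype, fraction and library set, so these values mostly restate the group differences. Over the same libraries and 15072 genes, those most like Slamf1 were F2r (r = 0.986), Lyn (0.979) and Ormdl1 (0.975). Those most like Cd48 were Gabpa (0.983), Kpna4 (0.977) and Prkdc (0.975), and those most like Cd84 were Hgf (0.972), Muc13 (0.969) and Ankrd28 (0.965). Slamf7 was most like Cd79a (0.960), Pqlc3 (0.947) and Sdc4 (0.942). Ly9 was most like Slc18a1 (0.937), Lats2 (0.925) and Ralgps1 (0.921).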

How the data were processed

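RNA of sorted HSCs was made into libraries with the SMART-Seq v4 kit, per the labels' protocols; this kit does not mark the strand. The submitters' processing notes name the build mm10 and the tools STAR 2.6.1e, featureCounts 1.6.2, cutadapt 1.9.1 and FastQC 0.11.7; the sources used here give neither their settings nor the annotation release. The authors deposited gene counts, not normalized, and a TPM table of the same libraries. Where names had become dates in the counts (27 genes), they were taken from the TPM table.

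Groups came from the labels. Of 35869 genes, 19395 passed edgeR's filterByExpr and 16474 were left out. One quasi-likelihood fit of 4 group means over 12 libraries (edgeR 4.0.16, R 4.3.3, TMM scaling) gave 5 comparisons, two-sided, adjusted by Benjamini-Hochberg over all genes at 0.05. CPM values use TMM library sizes. The scripts were tested on simulated data. Same-numbered KO libraries deviated together across fractions (r = 0.43, 0.61 and 0.47 over 11386 genes), so KO numbers pair the samples; WT 3 and WT 4 gave 0.10 and -0.48, and WT labels may be crossed between fractions, so WT was also paired by adjacent library number.

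The members and lists were chosen with earlier results of these data known. Named were the 7 members, check genes, up to 4 genes of each list with the smallest adjusted p, and for members of at least 5 CPM the 3 genes most like them. Sh2d1a, Sh2d1b1, Cd2, Slamf9, Ptpn6, Kit, Hlf and Procr, and list genes outside that rule, were chosen after their values were seen. The values of 1 neighbouring gene are not reported here. Alternatives were other low-count filters, DESeq2 1.42.0, edgeR with DESeq2's size factors, only the groups compared, limma-trend (limma 3.58.1) on log2(TPM + 1) and log2(TPM + 0.1), replicate blocks, a Y-linked covariate, a term for or removal of the 4 WT libraries, and leaving out each library.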

Additional observations from a re-analysis of the deposited data

How the results depend on the processing

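Of 819 values of single members under these alternatives, 47 lost the call, 28 gained it and 744 stayed on their side of the threshold. The sign changed in 33, of which 0 were called in either fit and 31 were interactions. The other 2 arose without the 4 WT libraries: Slamf7 in CD41neg KO went to 0.03 and Cd244 in CD41pos against CD41neg WT to -0.25. For KO against WT in CD41pos the number of members called stayed within 1.5 times 3 under all settings, and the interaction gave 0 under all. For KO against WT in CD41neg, 2 members were called and 4 with DESeq2. With Cd84 added, 3 were called under the filter of at least 1 CPM in 3 libraries. The same 3 were called when only these groups were fitted and with a term for the 4 WT libraries. Leaving out each library gave 2 to 3. For CD41pos against CD41neg in WT, 3 were called, but 1 when only these groups were fitted, 0 on log2(TPM + 1) and 1 on log2(TPM + 0.1). The replicate block by label called 0 there, and the block by library number called 2, Slamf6 and Slamf7. Leaving out each library gave 1 to 3. For the same comparison in KO, 1 was called, but 4 with DESeq2, 2 without a low-count filter, 2 when only these groups were fitted, 0 on log2(TPM + 1), 0 on log2(TPM + 0.1), 0 with the replicate block, 2 with a block by library number, 3 without the 4 WT libraries and 2 with the Y-linked covariate. Leaving out each library gave 0 to 2. The cause of these differences was not tested. On log2(TPM + 0.1) the median over 11386 genes of at least 5 CPM shifted by 0.22 in CD41pos and 0.17 in CD41neg KO, and Cd48 and Slamf1 stayed higher relative to it. Slamf6 and Cd244 rest on few reads, and 3 libraries a group limit what the tests could find.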
